A study of Nicotiana tabacum with 78 samples.

Results

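Roots of topped PMT1 plants were compared with roots of topped PMT3 plants, gene by gene. Both are tobacco (Nicotiana tabacum) lines in the Burley cultivar TN90 that carry an RNAi construct against putrescine N-methyltransferase (PMT) under the constitutive 35S promoter, which drives it throughout the plant, and each is a single transgenic line. Topping, the removal of the top of the plant, was done at flowering, and roots were taken 24 h later. The 2 values of a gene are the authors' mean RPKM (reads per kilobase of gene, scaled to the mapped reads of the library) of each group, for 2075 genes that the authors had called in other root comparisons of the series, mostly of topped with untopped plants and of PMT lines with TN90. The selection used these same topped roots, but not the comparison of PMT1 with PMT3. A gene was compared where it stood at 1 RPKM or more in either group, which 1998 of the 2075 genes did and 77 did not. The gene just inside this limit, NITAB013814, stood at 0.716 RPKM in PMT1 and 1.02 in PMT3, and the gene just outside it, NITAB076229, at 0.530 and 0.994. Ratios are log2 of (PMT1 + 0.1) over (PMT3 + 0.1), positive where PMT1 is higher, and folds are on the same scale, which understates the differences of low genes.

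The labels give 5 topped root samples for PMT1 and 5 for PMT3. The deposited table holds only their means, so a gene's ratio has no error, no replicate check and no p-value, and a mean may rest on 1 library. All 5 PMT1 samples are tagged root, but 4 of the 5 samples titled PMT3 root carry the tissue tag leaf, and the fifth comes from a plant whose leaf sample is labelled untopped. Titles and tissue tags also conflict in groups used here for comparison. All 4 samples of untopped PMT3 roots are tagged leaf, and all samples of topped PMT3 leaves are tagged root. Some samples of untopped PMT3 leaves and of topped TN90 and PMT2 roots conflict as well. The group columns cannot be traced to single samples. The values of PMT3, TN90 and PMT2 thus depend on the authors having grouped tissue and treatment correctly. The tissue could be checked. The 12 root genes quinolinate phosphoribosyltransferase (QPT), A622, the berberine bridge enzyme-like genes (BBL) and the aquaporin RB7 genes summed to 938 RPKM in topped PMT1 roots and 653 in topped PMT3 roots, against 9.71 and 9.50 in topped leaves of the same lines. The 19 genes of the photosynthesis list summed to 186 and 113 RPKM in these roots and to 3687 and 3405 in the leaves, and none was listed at 0 in either root column. Both columns therefore carry the root pattern.

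Tobacco alkaloids are made in the root. Nicotine joins a pyridine ring, derived from aspartate through aspartate oxidase, quinolinate synthase and QPT, to a pyrrolidine ring, derived from putrescine, which PMT methylates in the step that commits it to nicotine. Methylputrescine oxidase (MPO) acts next, and A622 and the BBL enzymes act late. Anatabine is built from pyridine units alone and does not need PMT. Topping is known to raise the genes of this pathway through jasmonate. No sequence is shown, since the reference table at hand matched none of the gene identifiers.

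Across all genes, the levels stood higher in PMT1 more often than in PMT3. Of 1998 genes, 376 stood at 2-fold or more above PMT3 in topped PMT1 roots (18.8%) and 119 at 2-fold or more below it (5.96%), called higher and lower from here on. The median log2 ratio was 0.48, with 5% of genes below -1.11 and 5% above 1.49. A scaling that sets the median level of the 2 columns equal shifts every ratio by 0.38 and turns this split round, to 123 genes higher (6.16%) and 290 lower (14.5%). Subtracting the median ratio itself gave 101 higher (5.06%) and 342 lower (17.1%). Which line has more genes on its side thus depends on the scaling, and the lists below are read against the median of 0.48.

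**Figure D1:**
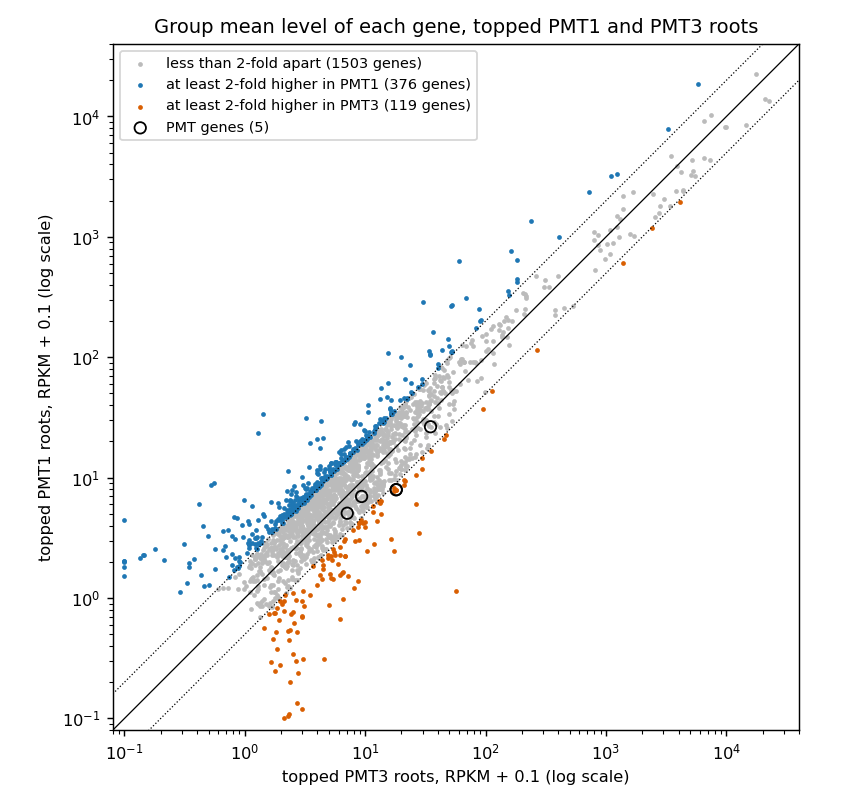
Group mean level of each of 1998 genes in topped PMT3 roots (horizontal, RPKM + 0.1, log scale) and topped PMT1 roots (vertical, same scale). Each point is 1 gene; the solid line marks equal levels and the dotted lines 2-fold differences. The 376 blue genes lie above the upper dotted line and the 119 orange genes below the lower one, and the 5 circled PMT genes all lie below the line of equality.

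The shift was not the same at every level. It was 0.20 for the 221 genes averaging under 2 RPKM over both columns, 0.60 for the 428 genes from 10 to 30 RPKM, and 0.47 for the 70 genes from 100 to 1000 RPKM. The 44 genes at 1000 RPKM or more went the other way, with a median of -0.31 and 29 of 44 below 0. These 44 genes held 80.2% of the summed RPKM of the table in PMT1 and 85.2% in PMT3. Of them, 27 carry neither a Swiss-Prot nor a tomato name (496 of all 1998 genes), and in several of the others the 2 names disagree. Among the exceptions, the most abundant of those at least 2-fold apart was NITAB093099 (Swiss-Prot name clathrin coat assembly protein AP180, tomato name a class II aminoacyl-tRNA synthetase family protein), at 18462 RPKM in PMT1, 5768 in PMT3 and 20350 in TN90. The summed RPKM of the 1954 genes below 1000 RPKM was 49582 in PMT1 and 37987 in PMT3, a log2 ratio of 0.38. With that ratio taken out, the median over all genes was 0.10, with 121 genes higher and 294 lower.

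The mapping of the listed libraries was compared, and no difference between the groups passed its test. Between 80.6% and 88.1% of reads mapped in the 5 listed topped PMT1 root libraries (84.5% ± 3.20, SD, n = 5) and between 75.6% and 85.3% in the 5 of PMT3 (79.0% ± 4.20, SD, n = 5). The difference of 5.49 percentage points gave p = 0.056 in a two-sided exact permutation test (0.17 after Benjamini-Hochberg adjustment over 3 measures), where the smallest p that 5 against 5 allows is 0.0079. Of the mapped reads, 88.1% ± 3.85 (SD, n = 5) lay in gene models in PMT1 and 82.5% ± 10.6 (SD, n = 5) in PMT3, where single libraries ran from 69.0% to 96.1%. That difference of 5.58 points gave an exact permutation p of 0.31 (adjusted 0.31). The ratio of these 2 means is 0.09 on the log2 scale, against the median of 0.48 over genes. Depth was 30524796 to 54201914 reads in PMT1 and 32866072 to 88083166 in PMT3 (exact permutation p = 0.22, adjusted 0.31). Whether mapping or the load of the most abundant genes has a part in the shift was not tested.

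**Figure D2:**
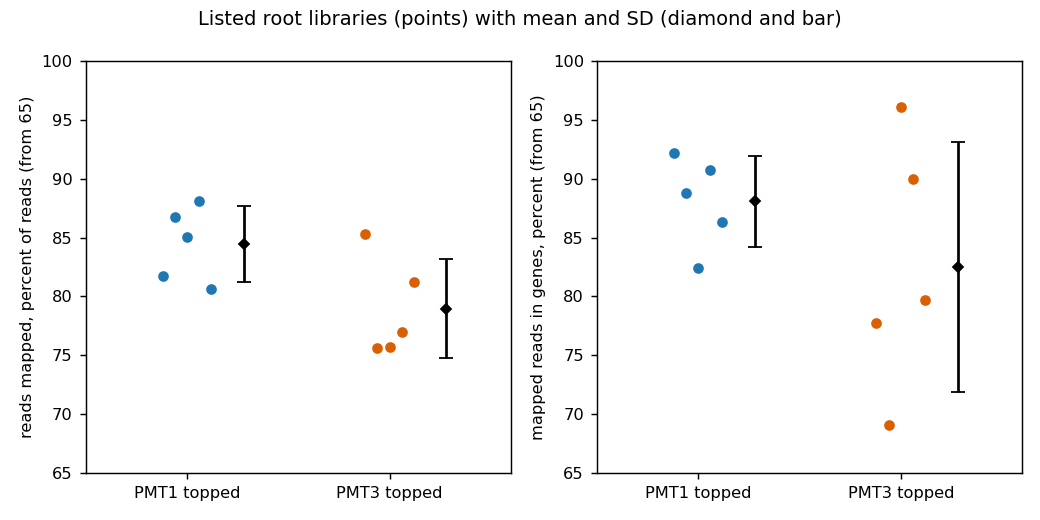
Percent of reads mapped (left) and percent of mapped reads in gene models (right) in each of 5 listed libraries of topped PMT1 and 5 of topped PMT3 roots; diamonds and bars are the mean and SD. The groups overlap in both measures, and the PMT3 libraries spread from 69.0% to 96.1% in gene models.

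The silenced genes came first. All 5 PMT genes stood lower in topped PMT1 roots than in topped PMT3 roots. The other scalings tried lower every ratio, so they could not turn this round. PMT3-type NITAB068133 was at 7.86 RPKM in PMT1 and 18.0 in PMT3, a 2.27-fold difference, against 276 in topped TN90. PMT2-type NITAB068134 was at 7.82 and 18.0, a 2.28-fold difference, against 147 in TN90. These were the only alkaloid candidates at least 2-fold apart. The other 3, all PMT4-type by their Swiss-Prot names, stood 1.32- to 1.40-fold lower in PMT1, as for NITAB020971, the most abundant, at 26.4 and 34.8 RPKM. Both lines were far below TN90, at 0.029 to 0.103 of its topped level in PMT1 and 0.066 to 0.138 in PMT3. The 5 genes are close copies, and with up to 10 hits allowed per read the split of reads among them is uncertain.

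The same genes ran the other way before topping. In untopped roots 4 of the 5 were at least 2-fold higher in PMT1, among them NITAB068134 at 13.1 RPKM in PMT1 and 4.14 in PMT3. After topping it stood at 0.602 of its untopped level in PMT1 and 4.26-fold above it in PMT3. NITAB068130 was at 7.35 RPKM in untopped and 6.88 in topped PMT1 roots, and at 2.41 and 9.23 in PMT3. All 5 were higher in topped than in untopped PMT3 roots, by 1.90- to 4.26-fold, while in PMT1 the topped level was 0.486 to 1.03 of the untopped one. The third silenced line, PMT2, stood at 11.6 RPKM for NITAB068133 and 13.8 for NITAB068134 in topped roots, between the 2 lines compared here. Whether the lines differ in how PMT responds to topping was not tested, as there are no values per sample.

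**Figure D3:**
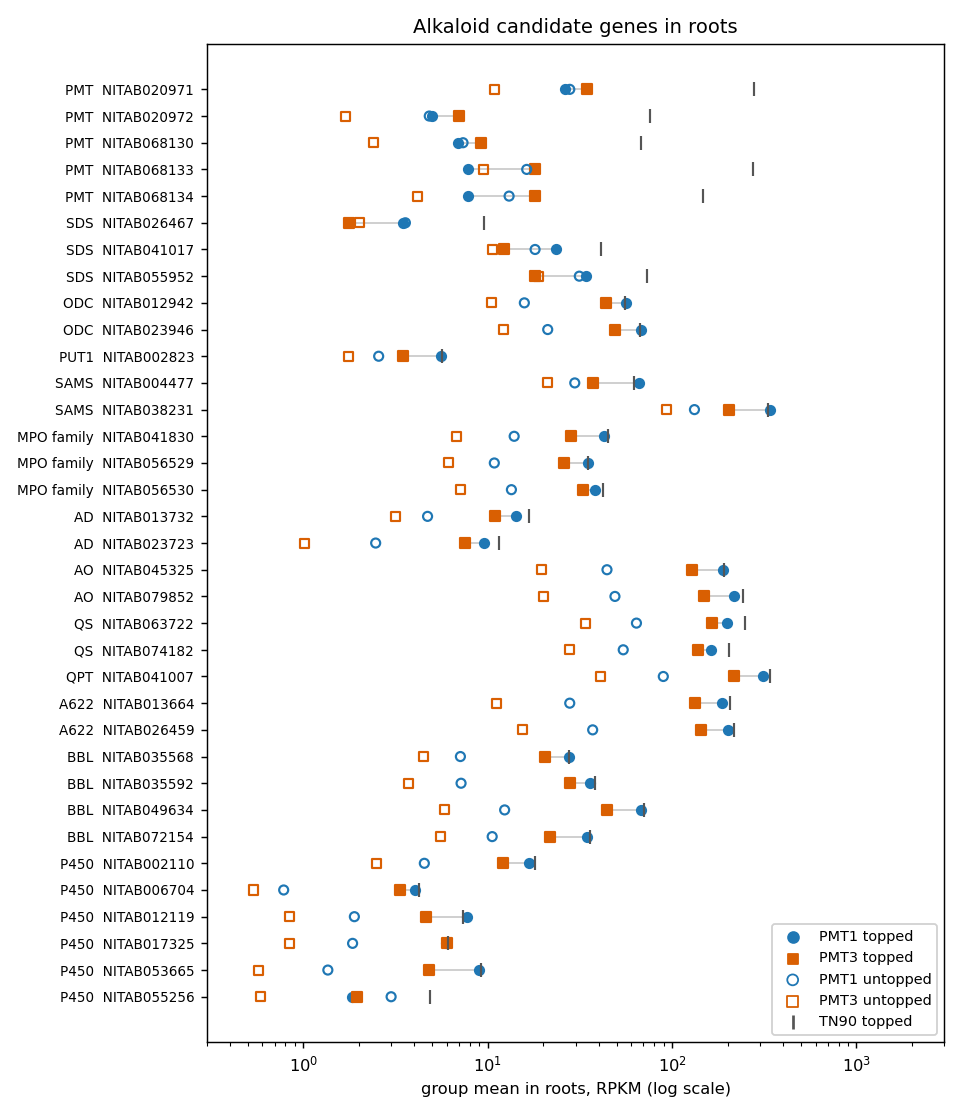
Authors' mean RPKM in roots (horizontal, log scale) of the 35 alkaloid candidates, by enzyme (vertical), in PMT1 (circles) and PMT3 (squares), topped (filled) and untopped (open), with topped TN90 as a bar. PMT genes lie left for topped PMT1 and far left of TN90, while nearly all other candidates have topped PMT1 right of topped PMT3 by less than 2-fold.

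None of the 30 other candidates was 2-fold apart in topped roots. PMT1 stood at 0.941 to 1.91 times the level of PMT3. On the log2 scale this is -0.09 to 0.94, with a median of 0.49 beside the 0.48 of all genes, and 28 of 30 were above 0. With columns centred the median was 0.11. The candidates were chosen by the study on these roots.

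Spermidine synthases, which also use putrescine, showed the widest gap among them. NITAB055952 was at 34.3 RPKM in PMT1 and 18.2 in PMT3, NITAB041017 at 23.4 and 12.3, and NITAB026467 at 3.47 and 1.76, which is 1.88- to 1.91-fold. TN90 stood above both lines for all 3, at 73.1, 40.9 and 9.56 RPKM. The S-adenosylmethionine synthases, which make the methyl donor, followed, with NITAB038231 at 340 and 204 RPKM and NITAB004477 at 65.8 and 37.2. Ornithine decarboxylase, which makes putrescine, was closer, at 68.1 and 49.0 RPKM for NITAB023946 and 56.2 and 43.6 for NITAB012942. The polyamine transporter PUT1 (NITAB002823) was at 5.56 and 3.49 RPKM.

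For the amine oxidases of the MPO family, which oxidize methylputrescine, NITAB041830 was at 42.9 RPKM in PMT1 and 28.4 in PMT3, NITAB056529 1.35-fold higher in PMT1, and NITAB056530 at 38.1 and 33.1. TN90 lay nearer to PMT1 than to PMT3 for each, as at 45.1 RPKM for NITAB041830. The pyridine branch behaved alike. QPT (NITAB041007), which closes that branch, was at 312 RPKM in PMT1, 216 in PMT3 and 340 in TN90. Aspartate oxidase was at 217 and 148 RPKM for NITAB079852, and quinolinate synthase at 199 and 165 for NITAB063722. Asparaginase, which can supply aspartate, was at 9.50 and 7.51 RPKM for NITAB023723.

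Of the late genes, A622 was at 200 RPKM in PMT1 and 143 in PMT3 for NITAB026459 and at 185 and 132 for NITAB013664, each 1.40-fold. The 4 BBL genes, named reticuline oxidase in Swiss-Prot, stood 1.28- to 1.59-fold higher in PMT1, led in level by NITAB049634 at 67.9 and 44.5 RPKM. Among the 6 cytochrome P450 candidates, NITAB053665 (71D7) was at 9.01 and 4.83 RPKM, while NITAB017325 (94C1) was at 5.96 and 6.03 and NITAB055256 (CYP749A22) at 1.84 and 1.96. The last 2 were the only candidates besides PMT with a ratio below 0.

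The gap in these 30 genes was wider before topping. In untopped roots 12 of them were at least 2-fold higher in PMT1 and none lower, where 12.7% of all genes were higher, and their median log2 ratio was 0.92 over the 29 past the minimum. A622 NITAB013664 stood at 27.9 RPKM in untopped PMT1 and 11.2 in untopped PMT3 roots. It was 6.63-fold higher in topped than in untopped roots of PMT1 and 11.8-fold higher in PMT3. Over the 30 genes, 26 were at least 2-fold higher on topping in PMT1 (22.1% of all genes) and 25 in PMT3 (27.9% of all genes), with medians of 1.69 and 2.22 on the log2 scale. The topped columns enter both kinds of ratio, so these are not independent.

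Genes of the cell wall and of cell division made up the largest groups that stood above the general shift. Primary walls are loosened by expansins and pectin enzymes as cells grow, and secondary walls of cellulose, xylan and lignin are laid down in xylem. Over all genes 18.8% were at least 2-fold higher in PMT1 and 5.96% lower. Of 96 wall loosening and pectin genes, 37 were higher (38.5%) and none lower, with a median of 0.93. Of 67 secondary wall and lignin genes, 25 were higher (37.3%) and 2 lower (2.99%), with a median of 0.95. Of 47 histone genes, 16 were higher (34%) and none lower, with a median of 0.90. Of 26 division and microtubule genes, 9 were higher (34.6%) and none lower, with a median of 0.94. With columns centred these medians were 0.52 to 0.58, above the 0.11 of all genes. Only 4, 1, 2 and 0 of their genes were then 2-fold higher, a smaller share in each list than the 6.16% of all genes, and 4 secondary wall genes and 1 wall loosening gene were 2-fold lower. In bulk roots, fewer cells of a type and less RNA per cell cannot be told apart.

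Expansin-like B1 (NITAB002813), a wall-loosening protein relative, had the largest ratio of the wall loosening list, at 20.8 RPKM in topped PMT1 and 3.87 in topped PMT3 roots, a 5.28-fold difference. It was at 2.73 and 1.79 in untopped roots and at 3.86 in topped TN90 and 5.71 in topped PMT2. Topped PMT1 thus stood apart from the other 3 genotypes. Arabinogalactan peptide 12 genes NITAB062330 and NITAB062329 were at 7.76 and 2.38 RPKM and at 3.61 and 1.14, and an extensin-like gene (NITAB077063) was at 3.85 and 1.39. All 14 genes with expansin in their name were compared, 7 of them at least 2-fold higher in PMT1 and none lower, a family picked after its values were seen.

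In the secondary wall list the fasciclin-like arabinogalactan proteins were higher together. Of the 6, a family taken by name and not a planned list, all lay above 0, as did 69.7% of all genes. At least 2-fold higher were 3 of them, against 18.8% of all genes. The highest ratio was that of NITAB004595, at 13.5 RPKM in PMT1 and 5.57 in PMT3. Its log2 ratio was 1.26, or 0.88 with columns centred, which is below 2-fold. In untopped roots that gene stood at 6.87 and 7.41 RPKM, and in topped TN90 at 6.81. Phenylalanine ammonia-lyase by its Swiss-Prot name, NITAB094895 (a class II aminoacyl-tRNA synthetase family protein by its tomato name) was at 113 and 33.7 RPKM, with 187 in TN90. A far more abundant gene with the same pair of names, NITAB054890, ran the other way, at 2402 and 3829 RPKM. With it, the summed level of the list was lower in PMT1, at 3832 RPKM against 4645. Laccase-12 (NITAB080067), an oxidase of lignin building blocks, ran against the list, at 4.29 RPKM in PMT1 and 12.5 in PMT3, 5.47 in TN90 and 3.42 in PMT2. The list as a whole was close to even before topping, with 6 genes higher, none lower and a median of 0.11. Its median log2 ratio of topped over untopped roots was 0.86 in PMT1 and 0.05 in PMT3.

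The division and microtubule list had the same course, at a median of 0.21 before topping and median ratios of topped over untopped of 0.76 in PMT1 and 0.17 in PMT3. Tubulin beta-1 (NITAB074971), a microtubule subunit, was at 11.1 RPKM in PMT1 and 4.46 in PMT3, after 5.96 and 5.59 in untopped roots. Both TPX2 genes, spindle and microtubule binding proteins, were more than 2-fold apart, at 26.8 and 12.1 RPKM for NITAB053654 and 2.22-fold for NITAB025020. The histones differed from this course. Their median was 0.88 before topping, close to the 0.90 after it, and 16 were at least 2-fold higher in PMT1 at each time. Histone H4 genes had the largest ratios, with NITAB024858 at 11.8 and 4.10 RPKM. All 13 genes with that name lay between 1.86- and 2.83-fold higher in PMT1, where 69.7% of all genes lay above 0. H4 copies are near identical, so that their reads may be shared among them. Summed over the list, histones reached 651 RPKM in PMT1, 352 in PMT3, 734 in TN90 and 835 in PMT2, which places PMT3 below the other 3.

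**Figure D4:**
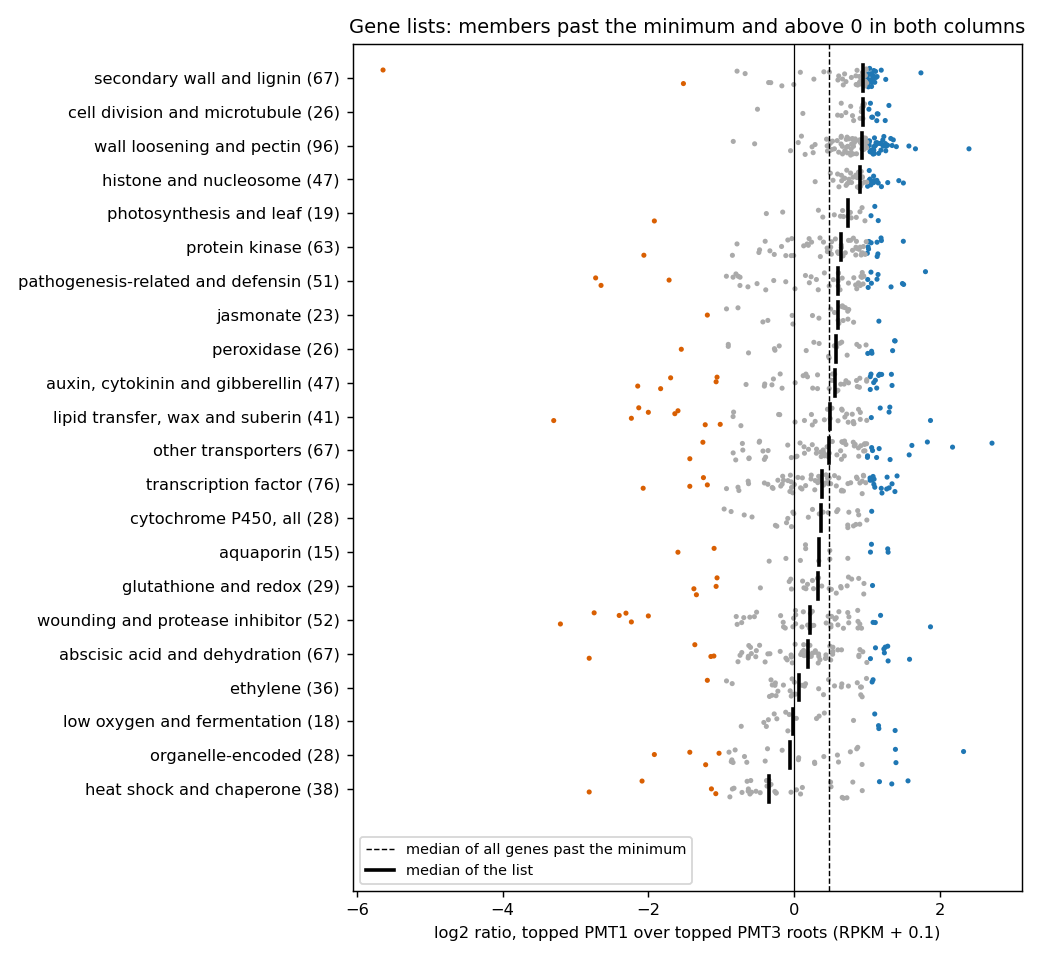
Log2 ratio of topped PMT1 over topped PMT3 roots (horizontal) for the members of each annotation list of at least 15 compared genes (vertical, number of compared genes in brackets). Blue points are at least 2-fold higher in PMT1 and orange points at least 2-fold lower, short black bars are list medians and the dashed line is the median of all genes, 0.48. An amino acid transporter gene listed at 0 in PMT3 is not drawn. The top 4 lists have medians of 0.90 to 0.95 and heat shock has the lowest, -0.34.

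Among the annotation lists, chaperone genes had the lowest median. Of 38 heat shock and chaperone genes, 3 were at least 2-fold higher in PMT1 (7.89%) and 4 lower (10.5%), against 18.8% and 5.96% of all genes. Their median was -0.34, and only 13 of the 38 lay above 0. Centring lowers every ratio, and gave a median of -0.72 with 11 genes lower. The extremes did not share a direction. A class I small heat shock protein (NITAB028253), which keeps unfolding proteins in solution, was at 0.600 RPKM in PMT1 and 2.88 in PMT3, while 2 others were higher in PMT1, NITAB065618 at 5.59 and 1.83 and NITAB083814 at 60.9 RPKM, 2.53-fold above PMT3. The lowest ratio of the list belonged to annexin D4 (NITAB097913), a calcium-dependent membrane binding protein listed through its gene ontology term, at 0.178 and 1.86 RPKM. The list stood at a median of -0.38 in untopped roots as well.

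Several of the large differences toward PMT3 lay among small secreted proteins. Inhibitors of digestive enzymes, defensins and lipid transfer proteins are short cysteine-rich proteins that plants use in defence and in the transport of lipids to the cell surface. A fruit-specific protein gene with a metallocarboxypeptidase inhibitor match, NITAB094683, was at 0.573 RPKM in topped PMT1 and 6.12 in topped PMT3 roots, a 9.24-fold difference. NITAB056966, of the same name, was at 1.11 and 7.99 RPKM, and NITAB069946 at 3.02 and 16.4. Their levels were low in the other topped roots too, with NITAB069946 at 6.31 in TN90 and 5.96 in PMT2, so that for each of the 3 genes topped PMT3 stood highest of the 4 genotypes. Defensin-like genes NITAB031245 and NITAB084826 were at 1.29 and 8.65 RPKM and at 0.886 and 6.42. Non-specific lipid-transfer protein 2 (NITAB007029) was at 0.209 and 2.94 RPKM, and protein RSI-1 (NITAB063696), another small protein, at 0.438 and 2.28.

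All of these stood the other way in untopped roots, but not every gene of this kind did. NITAB018954, of a protease inhibitor and lipid transfer family, was at 1.51 RPKM in topped PMT1 and 6.35 in topped PMT3 roots. It was already lower in untopped PMT1 roots, at 1.29 against 2.76. NITAB094683 was at 0.770 RPKM in untopped PMT1 and 0.428 in untopped PMT3, NITAB056966 at 2.14 and 0.917, and NITAB031245 at 2.41 and 1.41. On topping NITAB094683 was 11.8-fold higher in PMT3 and at 0.773 of its untopped level in PMT1. NITAB056966 was 7.96-fold higher in PMT3 and at 0.540 in PMT1. The pattern did not take in their whole families. Of 11 genes named fruit-specific protein or metallocarboxypeptidase inhibitor, a family picked after its values were seen, 4 were at least 2-fold lower in PMT1, none higher, and the abundant NITAB057682 was at 248 RPKM in PMT1 and 179 in PMT3. Of 12 defensin genes, picked likewise, 3 were lower and 3 higher. The highest of these, NITAB030906 (defensin-like protein P322), was at 640 and 183 RPKM, with 739 in TN90 and 755 in PMT2.

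**Figure D5:**
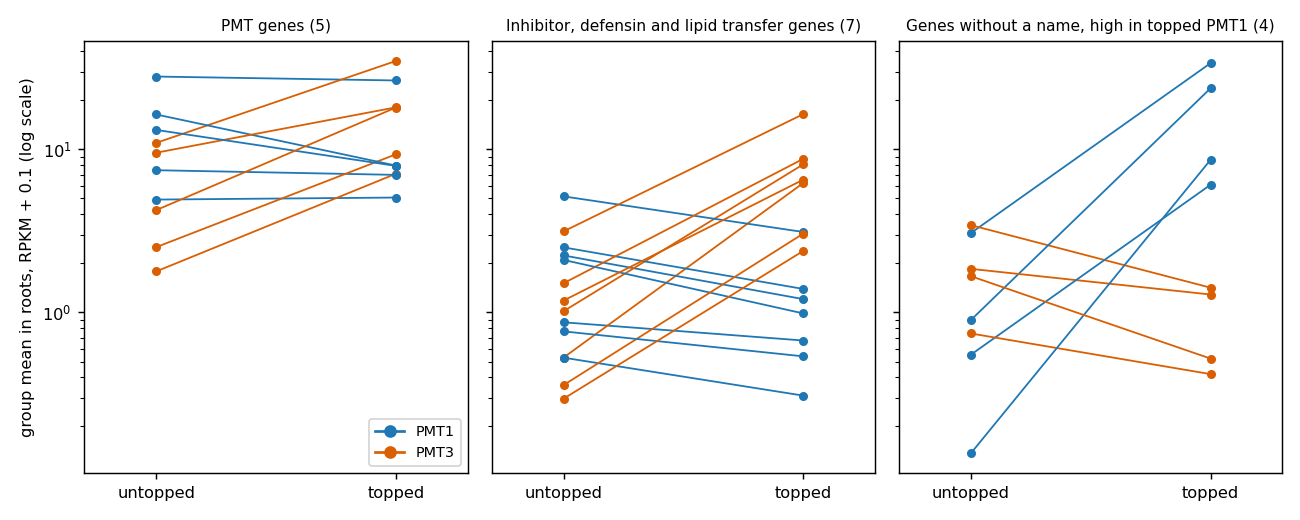
Group mean RPKM + 0.1 (vertical, log scale) in untopped and topped roots of PMT1 (blue) and PMT3 (orange), 1 line per gene, for the 5 PMT genes (left), 7 small secreted protein genes named in the text (middle) and 4 genes without a name that were high in topped PMT1 (right). In the left and middle panels PMT3 lines run upward and PMT1 lines run level or downward; in the right panel PMT1 lines run upward and PMT3 lines downward. The genes of the middle and right panels had large ratios in topped roots but are not all such genes. NITAB089025, NITAB087733 and NITAB046421, which took another course, are not drawn, so the shared directions follow from the choice.

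Counted as lists, these genes gave mixed totals. Of 52 wounding and protease inhibitor genes, 4 were at least 2-fold higher in PMT1 and 6 lower, with a median of 0.22, and 10 were lower with columns centred. Of 41 lipid transfer, wax and suberin genes, 5 were higher and 8 lower, with a median of 0.49, or 1 higher and 11 lower centred. Lipid transfer-like protein VAS (NITAB046421) was at 5.98 RPKM in PMT1 and 26.5 in PMT3, against 8.13 in TN90 and 6.10 in PMT2. Unlike the inhibitors, it was already lower in untopped PMT1 roots, at 5.15 against 9.88. Of 51 pathogenesis-related and defensin genes, 10 were higher (19.6%) and 3 lower (5.88%), near the 18.8% and 5.96% of all genes, with a median of 0.61. With columns centred the split turned to 3 higher and 10 lower.

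Hormone genes were spread over both sides, and their splits, like that of all genes (18.8% higher and 5.96% lower), depended on the scaling. Of 47 auxin, cytokinin and gibberellin genes, 11 were at least 2-fold higher in PMT1 (23.4%) and 5 lower (10.6%), with a median of 0.56, which turned to 0 higher and 6 lower with columns centred. A GH3-type auxin-amido synthetase (NITAB075331), which ties up free auxin, was at 1.36 RPKM in PMT1 and 5.11 in PMT3, and a gibberellin 3-beta-dioxygenase (NITAB081152), which makes active gibberellin, at 0.967 and 3.36. The auxin-response repressor IAA16 (NITAB065693) was at 13.2 and 5.14 RPKM. Of 23 jasmonate genes, 1 was higher and 1 lower, with a median of 0.60: allene oxide synthase 3 (NITAB098766), of the jasmonate precursor route, at 4.69 and 2.04 RPKM, and an ethylene-responsive transcription factor (NITAB018170) at 0.797 and 1.95. Of 36 ethylene genes, 2 were higher and 1 lower, with a median of 0.06 that fell below 0 with columns centred (-0.31). Of 67 abscisic acid and dehydration genes, 8 were higher and 4 lower, with a median of 0.19, or 1 higher and 9 lower and a median of -0.18 centred.

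Water, sugar and transport genes followed. Of 15 aquaporins, 4 were at least 2-fold higher (26.7%) and 2 lower (13.3%), against 18.8% and 5.96% of all genes. The plasma membrane channels NITAB020215 (pTOM75), at 24.3 RPKM in PMT1 and 9.93 in PMT3, and NITAB048275 (PIP2-4), at 6.05 and 2.41, were higher. Vacuolar channels lay on both sides, with NITAB043519 (RB7-5A) higher, at 21.4 and 10.2, and NITAB083999 (TIP2-2), at 1.34 and 4.24, and NITAB057433 (TIP1-1), at 4.07 and 8.82, lower. With columns centred no aquaporin was higher and 2 were lower. Sucrose synthases split sucrose for cell walls and respiration. Of 6 genes with that name, 2 were at least 2-fold higher and none lower, with a median log2 ratio of 0.58 and 1 gene below 0. The 2 were NITAB040763, at 206 and 92.1 RPKM, and NITAB006331, at 201 and 89.6. In untopped roots they were at 107 and 95.3 and at 106 and 86.5. The list of low oxygen genes that holds them had 4 of 18 higher (22.2%), none lower and a median of -0.02, or 1 higher and 1 lower centred. Of 67 other transporter genes, 13 were higher (19.4%) and 2 lower (2.99%), against 18.8% and 5.96% of all genes, and 6 and 6 with columns centred. An amino acid transporter gene, NITAB015460, stood at 4.35 RPKM in PMT1 and 1.65 in PMT2 after topping, and was listed at 0 in topped PMT3, in topped TN90 and in untopped roots of PMT1 and PMT3, so no fold is given. Of the 376 higher genes 6 were listed at 0 in PMT3, and of the 119 lower genes 1 was listed at 0 in PMT1.

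Regulators were set beside all genes, of which 18.8% were higher and 5.96% lower. Of 76 transcription factor genes, 15 were at least 2-fold higher (19.7%) and 4 lower (5.26%), with a median of 0.38, which turned to 2 higher and 9 lower with columns centred. Of 63 protein kinase genes, 11 were higher (17.5%) and 1 lower (1.59%), with a median of 0.65, or 1 higher and 3 lower centred. A jumonji-type factor (NITAB043423) was at 2.35 RPKM in PMT1 and 10.2 in PMT3, with 15.8 in TN90 and 16.0 in PMT2, so that PMT1 was the low line here. The one lower kinase was a cysteine-rich receptor-like kinase (NITAB057405), at 0.609 and 2.86 RPKM. A phosphatidylinositol-4-phosphate 5-kinase family gene (NITAB056273), a lipid kinase, was at 250 and 88.4 RPKM in topped roots and at 241 and 634 in untopped roots.

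Among genes at 5 RPKM or more in either line, the largest ratio in either direction belonged to NITAB036511, whose 2 names disagree (Swiss-Prot trichome birefringence-like 15, a wall polysaccharide acetylation protein family, and a tomato VQ motif protein). It was at 1.05 RPKM in topped PMT1 and 57.1 in topped PMT3 roots, 49.9-fold apart. In untopped roots it was at 300 RPKM in PMT1 and 0.980 in PMT3, the reverse order. Topped PMT2 stood at 185 and topped TN90 at 2.94 RPKM. Group means cannot show how many libraries carry these levels.

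Of the 10 highest ratios among genes at 5 RPKM or more, 7 belonged to genes with no name. Of all 1998 genes compared, 496 had no name, as had 93 of the 376 higher and 39 of the 119 lower. The higher genes as a whole were thus not marked by a lack of names. NITAB084977 was at 33.7 RPKM in topped PMT1 and 1.32 in topped PMT3, 23.8-fold apart, with 36.1 in PMT2 and 3.26 in TN90. NITAB084982, NITAB041008 and NITAB036366 were 14.5-, 18.4- and 16.6-fold apart. These 4 were all below PMT3 before topping, for example NITAB041008 at 0.798 RPKM in untopped PMT1 and 1.75 in untopped PMT3. NITAB036366 is mainly a leaf gene, at 831 RPKM in topped PMT1 leaves and 532 in topped PMT3 leaves against 8.53 and 0.421 in the roots. NITAB075284, also unnamed, was at 7.58 and 2.12 RPKM in topped roots and was listed at 0 in untopped PMT1. NITAB089025 and NITAB087552, at 8.89 and 0.459 RPKM and at 31.1 and 3.10, were as high in untopped PMT1 roots, at 10.2 and 33.6, and as high in TN90, at 8.75 and 25.2. NITAB087733 was at 628 and 60.3 RPKM in topped roots, but at 909 and 1015 in untopped roots.

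The 3 named genes among these 10 differ in kind. A probable O-methyltransferase 3 (NITAB014610), of a family that methylates small molecules, was at 29.2 RPKM in PMT1 and 4.18 in PMT3, 6.85-fold apart, with 28.4 in TN90 and 24.1 in PMT2. In leaves it was higher in PMT1 as well, at 28.1 RPKM in topped leaves, 2.66-fold above PMT3. A receptor homology region gene (NITAB071867), of a family that sorts proteins to the vacuole, was at 290 RPKM in PMT1, 9.65-fold above PMT3, and a DNA helicase family gene (NITAB090993) at 109 and 15.5 RPKM. For both, TN90 stood with PMT1, at 456 and 154 RPKM, and PMT2 with PMT3, at 47.0 and 32.5. Of the 10 lowest, 2 had no name, NITAB048053 at 3.39 and 27.9 RPKM and NITAB017046 at 2.37 and 17.1.

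The ratios in topped roots were set beside those of the same lines in other tissues. In untopped roots, 244 of 1919 genes were at least 2-fold higher in PMT1 (12.7%) and 58 lower (3.02%), with a median of 0.39. Higher in both were 85 genes, which is 22.6% of the topped list and 34.8% of the untopped one, and lower in both were 24, which is 20.2% and 41.4%. Opposite calls were made for 18 genes higher and 6 lower in topped roots. Across the 1889 genes compared at both times, Pearson's r of the 2 ratios was 0.31, a description over genes that share lines and depth. The median did not stand above 0 in leaves. It was -0.10 in topped leaves, with 97 of 920 genes higher (10.5%) and 166 lower (18.0%), and -0.03 in untopped leaves, with 60 of 907 higher (6.62%) and 74 lower (8.16%).

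Some genes differed between the lines wherever they were measured. In topped and untopped roots and leaves alike, 10 genes were 2-fold or more above PMT3 in PMT1 and 11 below it by as much. These are 2.66% of the 376 higher and 9.24% of the 119 lower genes of topped roots. Only 920 genes passed the minimum in topped leaves and 907 in untopped leaves. The count over all 4 pairs was not made with columns centred, where NITAB075366 had a log2 ratio of 0.74 in topped roots, below 2-fold. Higher were the defensin P322 gene NITAB030906, at 34.5 and 8.08 RPKM in topped leaves, the proteinase inhibitor I-B gene NITAB075366, at 14.9 and 6.81 RPKM in topped roots, and a peroxidase gene, NITAB064782, at 3.88 and 0.353. NITAB092268, unnamed, had similar levels in both organs, at 267 and 51.5 RPKM in topped roots and 258 and 38.1 in topped leaves. NITAB010871, at 2.44 and 0.0801 RPKM in topped roots, was at 0.0131 in TN90 and 0.101 in PMT2. In topped roots it was thus near 0 in every line but PMT1. In untopped roots it was at 3.64 RPKM in PMT1 and 0.650 in PMT3.

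The lower genes in turn were often near 0 in PMT1. NITAB011589 was at 0.0208 RPKM in topped PMT1 and 2.88 in topped PMT3 roots, and at 0.0207 in TN90 and 0.0314 in PMT2, so that only PMT3 carried it. A MADS-box gene named for AGL8 (NITAB092806), a floral regulator family, was at 0.0342 and 2.60 RPKM, with 0.138 in TN90 and 1.14 in PMT2. A HAD-superfamily hydrolase gene (NITAB080944) was at 0.00518 RPKM in PMT1, 21.5-fold below PMT3, and at 6.10 in TN90, with PMT2 also low, at 0.154. NITAB062516 was at 0.211 and 4.48, and an ENTH domain gene (NITAB049585), of a family that shapes transport vesicles, at 1.45 and 6.10.

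In the unscaled values, the median against TN90 lay further from 0 for PMT3 than for PMT1. In topped roots the median log2 ratio to TN90 was -0.02 for PMT1, with 86 genes at least 2-fold higher (4.29%) and 142 lower (7.09%), and -0.40 for PMT3, with 102 higher (5.07%) and 359 lower (17.9%). Against topped PMT2 the median was -0.09 for PMT1, with 119 genes higher (5.93%) and 126 lower (6.28%), and -0.45 for PMT3, with 130 higher (6.44%) and 530 lower (26.3%). Each pair of these ratios shares a column, so they are given side by side only. They were not computed with columns centred, and whether the scaling of the PMT3 column has a part was not tested. The ratios of topped over untopped roots use the same topped columns that picked the 376 higher and 119 lower genes, so nothing is read from their counts against those of all genes. On topping, 131 of the 376 were at least 2-fold up and 2 down in PMT1, and 35 up and 55 down in PMT3. Of the 119, 3 were up and 19 down in PMT1, and 59 up and 3 down in PMT3. Of all genes, 22.1% were up and 3.97% down in PMT1, and 27.9% up and 6.14% down in PMT3.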

How the data were processed

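Values were the RPKM that the authors deposited for 2075 genes as means of 16 groups, here those of topped PMT1 and PMT3 roots. Per the study's methods, TruSeq stranded total RNA libraries were mapped by CLC Genomics Workbench 11.0.1 (RNA-Seq Analysis 2.16) to an updated tobacco genome, at similarity and length fraction 0.95 and up to 10 hits per read, and genes were those that passed p of at most 0.05 and a 2-fold change in the authors' own exact test in chosen root comparisons. Without counts per gene and library, no count test was possible on these values. The deposited library table gave read counts and, in percent, the share of reads mapped and its part in gene models, for libraries named by line, tissue and treatment only. The titles number the plants, and a p-value here reflects library-to-library spread only. A second sheet with the same read counts was not used.

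Ratios used a pseudocount of 0.1 RPKM, a minimum of 1 RPKM in either column and a 2-fold limit. Lists (12 by identifier, 23 by annotation term, 117 genes in more than 1 annotation list) and all members were chosen with earlier results of these data known. Named were the 35 candidates, the 10 highest and 10 lowest ratios at 5 RPKM or more, up to 4 genes per list, up to 10 per direction 2-fold apart in all 4 tissue and treatment pairs, and up to 5 per direction by the difference between topped and untopped ratios, plus families marked as picked afterwards. Mapping was compared by two-sided exact permutation tests on means. Alternatives were other pseudocounts, minimums, folds and scalings, medians, weighting by reads and leaving out each library. Code was tested on simulated data. Software was Python 3.11.15 with scipy 1.17.1, numpy 2.4.6, matplotlib 3.10.9 and pandas 2.3.3.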

Additional observations from a re-analysis of the deposited data

How the results depend on the processing

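The 376 genes at least 2-fold higher and 119 lower in topped PMT1 roots became 389 and 124 with a pseudocount of 0.01 RPKM, 206 and 83 with 1 RPKM, 386 and 127 with no minimum, and 273 and 65 with a minimum of 5 RPKM. A fold of 1.5 gave 892 and 307, and a fold of 3 gave 87 and 53. Centring the columns gave 123 and 290. Chosen after seeing the data, subtraction of the median ratio gave 101 and 342, and scaling to the genes under 1000 RPKM gave 121 and 294, with a median of 0.10 in place of 0.48. The median ratio was 0.41 to 0.56 under the other pseudocounts and minimums. A called ratio could not change sign under these settings, since a pseudocount keeps the sign and centring moves a ratio by only 0.38. With columns centred 27 of the 168 named genes were no longer 2-fold apart and 5 newly were. With a pseudocount of 1 RPKM 18 no longer were.

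The difference in percent of reads mapped was 4.57 to 7.07 points with each library left out in turn, with exact permutation p of 0.032 to 0.12. It passed 0.05 without PMT1 library 5 (6.45 points, exact p = 0.040) and without PMT3 library 1 (7.07 points, exact p = 0.032). The difference in percent in gene models was 2.21 to 8.97 points (exact p of 0.071 to 0.62). It was 2.21 points without PMT3 library 2 and 8.97 without PMT3 library 3, and 2.79 points when weighted by reads. The medians of the libraries differed by 8.06 points in reads mapped and 9.08 points in gene models. No paired analysis was possible because the gene values are group means and the listed libraries carry no replicate numbers. Genes near 1 RPKM rest on few reads, and the depth behind a single mean is unknown. The cause of these changes was not tested.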

Other observations

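Genes whose Swiss-Prot names belong to the chloroplast or mitochondrial genome lay on both sides in topped roots. Of 28 such genes, 3 were at least 2-fold higher in PMT1 (10.7%) and 4 lower (14.3%), against 18.8% and 5.96% of all genes. Their median log2 ratio was -0.05, or -0.43 with columns centred, when 11 were lower. A gene named cytochrome c oxidase subunit 1 (NITAB003780), a part of the mitochondrial respiratory chain, was at 11.3 RPKM in PMT1 and 2.17 in PMT3, with 3.92 in TN90. Ycf2 names gave 6 genes, 2 of them higher and 2 lower, among them NITAB062685 at 6.92 and 2.57 RPKM and NITAB097343 at 2.29 and 5.45. Only 8 of the 19 genes of the photosynthesis list were more than 10-fold higher in both topped leaf columns than in both topped root columns, and those 8 had log2 ratios of 0.55 to 1.15 between the root columns.

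Redox genes were mixed as well. Of 29 glutathione and redox genes, 1 was at least 2-fold higher in PMT1 (3.45%) and 4 lower (13.8%), against 18.8% and 5.96% of all genes. Their median was 0.32 against 0.48 for all genes. With columns centred 0 were higher and 4 lower. Those lower included the transmembrane ascorbate ferrireductase genes NITAB084958, at 1.63 and 4.39 RPKM, and NITAB032560, at 3.79 and 9.76, which also stood lower in untopped PMT1 roots, at 2.09 against 4.68 and 4.36 against 7.42. Of 26 genes of the peroxidase list, 6 were higher (23.1%) and 1 lower (3.85%), or 2 higher and 4 lower centred. The list leaves out NITAB064782, with a log2 ratio of 3.14. Of 28 compared genes with peroxidase in their name, 7 were higher and 2 lower. Peroxidase 28 (NITAB024746) was at 17.9 and 6.78 RPKM and peroxidase 23 (NITAB060097) at 0.563 and 1.84.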
